A study of Gossypium with 24 samples.

Results

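The 150 genes described here were chosen by their measured response to waterlogging in the roots of 2 cotton varieties. On the scale below, they were at least 2-fold higher in previously waterlogged than control roots of variety 9001 after 24 h of recovery. On that scale they were held close to control in variety 4847 at that time, and within 2-fold of it in both varieties before recovery. For the choice, each count was divided by its library total and multiplied by 1000000 (CPM), and averaged over the 3 libraries of a group. With 0.5 CPM added, the log2 ratio of waterlogged to control roots had to lie between -1 and 1 at 0 h in both varieties, to be at least 1 at 24 h in 9001, and to lie between -0.5 and 0.5 at 24 h in 4847. Among 60633 genes, 299 met these conditions, and the 150 with the largest 24 h ratio in 9001 were kept. Because these ratios chose the genes, they are given below as a description with no test.

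The submitters describe 9001 as tolerant of waterlogging and 4847 as sensitive to it. Seedlings at the four-leaf stage were kept for 96 h in darkness, either waterlogged or drained as a control. Roots were collected when the dark period ended (0 h) or 24 h later, the waterlogged plants being drained and all plants being back in the light (24 h). The 8 groups, with 3 libraries each, were waterlogged 9001 at 24 h, control 9001 at 24 h, waterlogged 9001 at 0 h, control 9001 at 0 h, and the same 4 groups of 4847. All 8 groups, controls included, had passed through the dark period. No control was kept dark for the last 24 h, so light and elapsed time cannot be told apart. Whether a group's 3 libraries are separate plants is not in the labels, and p-values here reflect library-to-library spread that may be technical.

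Waterlogging deprives roots of oxygen, and root cells then turn from respiration to glycolysis and fermentation. Drainage brings oxygen back together with light, and the recovering root has to deal with reactive oxygen species, restore its water uptake and resume growth. The conditions bound the ratio to control roots at 0 h and not the level, so the 150 genes need not be quiet during flooding. The study's title concerns GABA, an amino acid made from glutamate that feeds into respiration through the GABA shunt. The files give only gene IDs, with no names or descriptions, so it is not known which of the 150 genes belong to these processes. Lists of genes for the GABA shunt, fermentation, aquaporins and other pathways, and markers of root cell types and of shoot tissue, were defined by gene description and could not be applied. The labelled tissue was therefore not checked against markers.

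Totals ran from 21423479 to 22442564 counts in the waterlogged 4847 libraries at 24 h and from 36096441 to 39945111 in the other 21 libraries. The scaling of the libraries bears on every comparison of waterlogged with control roots. TMM factors, which assume that most genes do not change, averaged 1.22 in waterlogged and 1.47 in control 9001 at 24 h, and 0.897 in waterlogged and 1.47 in control 4847 at 24 h. Replacing library totals by TMM factors shifts the plain log2 ratio of waterlogged to control roots by 0.27 in 9001 and 0.71 in 4847 at 24 h, and by 0.86 and 0.68 at 0 h. With 0.5 CPM added the shift depends on the level, and for 52 of the 150 genes the ratio in 9001 at 24 h was lower with TMM factors, by at most 0.24.

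The 150 genes were together far more abundant in recovering 9001 roots than in any other group, on the scale that chose them. Their summed level was 2048, 2081 and 2059 CPM in the libraries of waterlogged 9001 at 24 h, against 578, 564 and 577 CPM in its controls. In waterlogged 4847 at 24 h the sum was 734, 753 and 721 CPM, against 660, 649 and 652 CPM in its controls. At 0 h the sum was 389, 381 and 381 CPM in waterlogged 9001 and 432, 430 and 437 CPM in its controls. In 4847 at 0 h it was 331, 319 and 331 CPM in waterlogged roots and 328, 332 and 335 CPM in controls. The libraries of waterlogged 9001 at 24 h stood far above all others, and in both varieties the sums on this scale were higher at 24 h than at 0 h in control as well as waterlogged roots. With TMM factors, described above, the sums were 1672 to 1715 CPM in waterlogged 9001 at 24 h, against 382 to 394 CPM in its controls, and 802 to 835 CPM in waterlogged 4847 at 24 h, against 439 to 453 CPM in its controls. At 0 h they were then 651 to 665 CPM in waterlogged 9001 and 408 to 411 CPM in its controls, so that the 9001 controls were no higher at 24 h than at 0 h. In 4847 at 0 h the sums with TMM factors were 495 to 508 CPM in waterlogged roots and 312 to 320 CPM in controls. The most abundant of the genes averaged 264.5 ± 13.3 CPM in waterlogged 9001 at 24 h and 40.2 ± 1.38 CPM in its controls, against 43.4 ± 2.71 CPM in waterlogged and 31.8 ± 0.953 CPM in control 4847 (SD, n = 3 each). Leaving it out, the sum was still 1790 to 1806 CPM in waterlogged 9001 at 24 h, against 524 to 538 CPM in its controls. In such bulk samples, more RNA per cell and more cells of a type that uses these genes cannot be told apart.

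**Figure D1:**
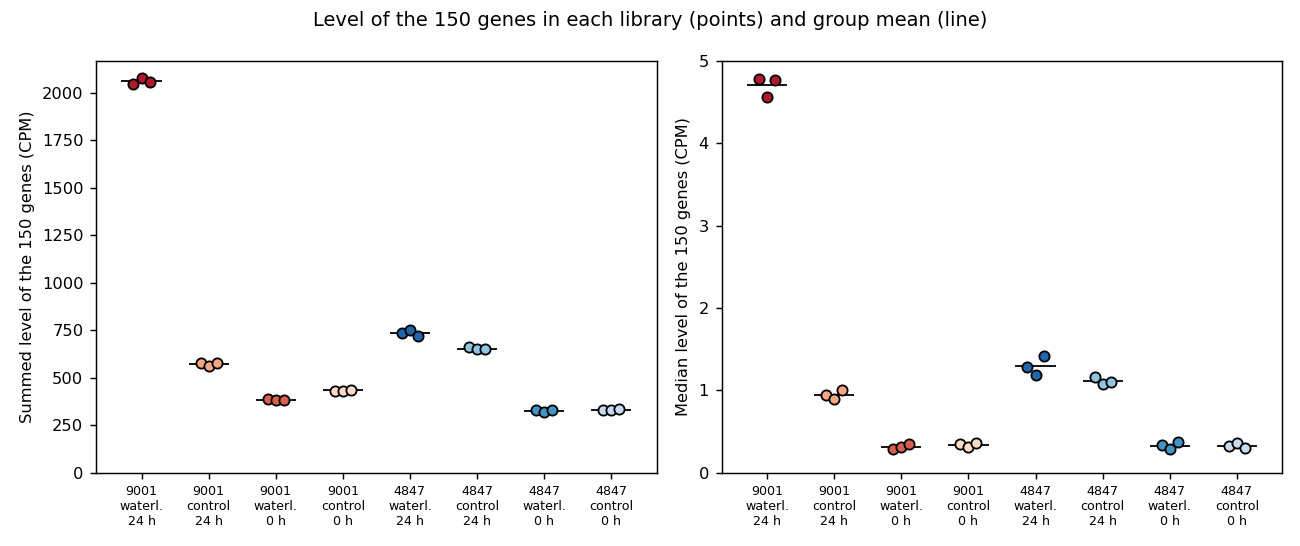
Summed level (left) and median level (right) of the 150 genes in CPM, in each of 3 libraries per group (points) with the group mean (line), for the 8 groups along the horizontal axis. Waterlogged 9001 at 24 h lies between 2048 and 2081 CPM in the sum, and every other library lies at or below 753 CPM.

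Most of these genes were weakly expressed outside recovering 9001 roots. The median gene had 4.44 CPM in waterlogged 9001 at 24 h and 0.909 CPM in its control, and 1.26 CPM in waterlogged and 1.12 CPM in control 4847 at that time. At 0 h the medians were 0.330 CPM in waterlogged and 0.371 CPM in control 9001, and 0.351 CPM in waterlogged and 0.334 CPM in control 4847. Over all 50638 genes that entered the tests the median was 5.83 CPM in waterlogged 9001 at 24 h and 7.05 CPM in its control. A level of at least 1 CPM was reached by 145 of the 150 genes in waterlogged 9001 at 24 h and by 73 in its control, and by 80 in both groups of 4847 at 24 h. At 0 h that level was reached by 47 genes in waterlogged and 54 in control 9001, and by 47 in waterlogged and 48 in control 4847. The smallest ratio kept, 1.262, sets a floor under waterlogged 9001 at 24 h, where the lowest gene had 0.863 CPM. Its count at 1 CPM is thus largely built in. Shares of all tested genes at 1 CPM are not given, so nothing is read from these counts. Per kilobase of length (FPKM), 36 genes had at least 10 in waterlogged 9001 at 24 h, 99 had 1 to 10 and 15 had less than 1. At so low a level at 0 h the added 0.5 CPM holds the ratio near 0, and with 0.1 CPM added 71 of the 150 genes still met the conditions. Of the 150, 40 then left the bound at 0 h in 9001, with 18 higher and 22 lower under waterlogging. In 4847, 42 left the bound at 0 h and 41 left that at 24 h.

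In 9001 at 24 h the log2 ratio of waterlogged to control roots had a median of 1.57 over the 150 genes, with quartiles of 1.38 and 1.89, and 31 genes reached at least 2. The gene ranked last inside the limit had a ratio of 1.262, and the first gene outside it 1.260. In 4847 at 24 h the median was 0.12 and the bound kept all values between -0.46 and 0.50. Among genes otherwise eligible, the nearest left out by that bound had a ratio of 0.503 in size. At 0 h the medians were -0.05 in 9001 and 0.00 in 4847. Over all tested genes the same ratios had medians of -0.21 in 9001 and -0.63 in 4847 at 24 h, and of -0.57 and -0.41 at 0 h, so the bounds around 0 held genes that lay above the general fall of the ratios on this scale.

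The separation of the libraries behind these ratios is given as a description. In 149 of the 150 genes every library of waterlogged 9001 at 24 h lay above every control library, where 25.3% of all tested genes did so. In the 1 exception the waterlogged libraries had 0.706, 0 and 2.49 CPM, against 0.154, 0.153 and 0.0501 CPM in the controls, so that 1 library held most of its counts. In 125 genes the libraries of waterlogged 9001 at 24 h lay above all 21 other libraries, where 6.7% of all tested genes did so. The genes were chosen by the ratio in these libraries, so nothing is read from those shares. In 4847 at 24 h the waterlogged and control libraries did not overlap in 38 of the 150 genes, where 81.6% of all tested genes did not overlap. The waterlogged libraries were the higher ones in 30 of these and the lower ones in 8, where 18.9% of all tested genes were higher and 62.8% lower. The bound on the ratio in 4847 used these same libraries, so nothing is read from the shares in 4847 either. The spread between the 3 libraries of waterlogged 9001 at 24 h, as a coefficient of variation, had a median of 9.19% over the 150 genes and 9.20% over all tested genes. Leaving out each of the 24 libraries in turn, 128 to 150 of the genes still met the conditions. The lowest number came without replicate 2 of waterlogged 4847 at 24 h, and 96 genes met them in every case.

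Whether these genes were flat in 4847 depended on the scaling. That the response was larger in 9001 is built into the choice, and it held under all 4 scalings tried. With TMM factors the median log2 ratio of the 150 genes at 24 h was 1.66 in 9001 and 0.57 in 4847, against medians of 0.01 and -0.08 over all tested genes. All 150 genes then still had a ratio of at least 1 in 9001, but 85 had a ratio of 0.5 or more in 4847, 14 of them of at least 1. At 0 h 28 genes in 9001 and 30 in 4847 passed a ratio of 1 upwards. In all, 51 of the 150 met the conditions with TMM factors, 55 with RLE factors and 73 with upper-quartile factors, and 50 met them under all 3. The ratio in 9001 was above that in 4847 for all 150 genes with TMM factors, by a median of 1.16 and at least 0.42, and with library totals by a median of 1.47 and at least 0.82. With RLE factors the median difference was 1.17 and the smallest 0.43, and with upper-quartile factors 1.26 and 0.57. The description as genes raised in 9001 alone therefore holds on the scale of library totals, and for 50 of the 150 genes on all 4 scales. Of those 50, 24 also met the conditions with 0.1 in place of 0.5 CPM added to library totals. The 50 were the weaker genes. Their median was 2.28 CPM in waterlogged and 0.254 CPM in control 9001 at 24 h. In those groups of 4847 it was 0.158 and 0.192 CPM. At such levels the added 0.5 CPM draws a ratio towards 0, and its part in their meeting the bound in 4847 was not tested. The other 100 had 6.99 and 2.08 CPM in the groups of 9001 and 2.85 and 2.42 CPM in those of 4847.

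**Figure D2:**
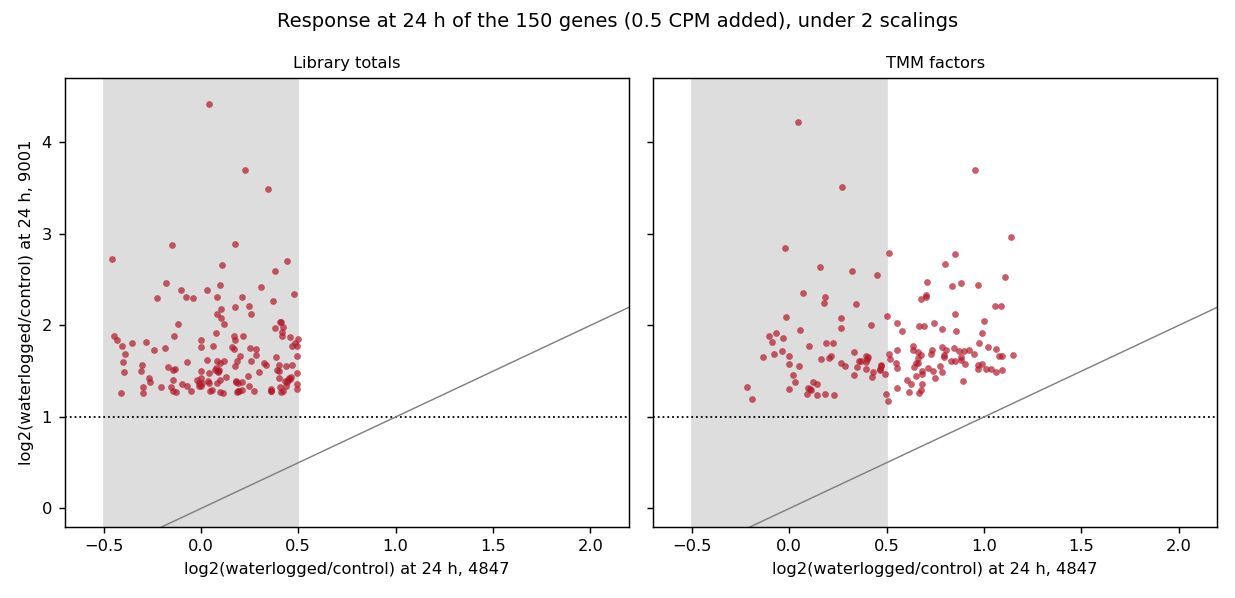
Log2 ratio of waterlogged to control roots at 24 h, in 9001 (vertical axis) against 4847 (horizontal axis), with 0.5 CPM added, for the 150 genes (points), with library totals (left) and TMM factors (right). The grey band is the range from -0.5 to 0.5 in 4847, the dotted line a ratio of 1 in 9001 and the grey line equal ratios. With TMM factors 85 genes lie right of the band, and all 150 lie above the line of equal ratios.

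The fit across all genes uses TMM factors and adds no 0.5 CPM, and all 150 genes entered it. In 9001 at 24 h it called all 150 higher in waterlogged than in control roots, against 31.8% of all tested genes (edgeR, adjusted p under 0.05). In 4847 at 24 h it called 95 of them higher, against 35.5% of all tested genes, and 0 lower, against 38.8%. It called the response at 24 h larger in 9001 than in 4847 for 104, against 28.8% of all tested genes. At 0 h it called 62 higher and 14 lower under waterlogging in 9001, against 36.1% and 40.7% of all tested genes, and 68 higher and 12 lower in 4847, against 36.4% and 38.5%. Of the 95 higher in 4847 at 24 h, 52 were at least 2-fold higher in this fit, where 14 genes were with 0.5 CPM added. Of those higher at 0 h, 48 in 9001 and 54 in 4847 were at least 2-fold higher. Shares of all tested genes are not given beside the 2-fold counts. The conditions of the choice used these contrasts, so the counts are a description and are not read as support.

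Since the choice used the 4 groups at 24 h, the levels of the varieties at that time are a description. The log2 ratio of 9001 to 4847 had a median of 1.40 over the 150 genes in waterlogged roots and -0.07 in controls, against 0.38 and -0.02 over all tested genes. In 140 genes the level in waterlogged 9001 was above that in waterlogged 4847 by a log2 ratio of at least 0.5 and by more than the control of 9001 lay below that of 4847. Their median was 4.40 CPM in waterlogged and 0.867 CPM in control 9001, and 1.02 CPM in waterlogged and 0.996 CPM in control 4847. In 8 genes the larger difference was a lower control in 9001. Those had a median of 5.59 CPM in waterlogged and 1.32 CPM in control 9001, and 3.98 CPM in waterlogged and 2.84 CPM in control 4847. The remaining 2 genes met neither description. With TMM factors the median ratio was 1.04 in waterlogged roots and -0.06 in controls, against 0.06 and -0.02 over all tested genes, and 132 genes fell in the first set and 9 in the second. The conditions fix that the ratio is larger in waterlogged roots than in controls, and at control levels near or below 1 CPM the added 0.5 CPM leaves little room for a lower control to show, so nothing is read from the split.

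The change of these genes without waterlogging was taken from the controls of 4847, whose change over time the conditions did not use. These controls also passed from darkness to light between 0 h and 24 h. From 0 h to 24 h, 73 of the 150 genes rose in those controls, which is 48.7%, against 39.9% of all tested genes (edgeR, adjusted p under 0.05). A further 27 genes fell, which is 18.0%, against 35.9% of all tested genes, and 17 fell with limma on log2(FPKM + 1). The remaining 50 were not called. Of the risers 6 had no counts in the controls at 0 h, and of the fallers 2 had none at 24 h. The fitted log2 changes of the other risers ran from 0.63 to 7.19, and those of the other fallers from -4.86 to -0.42. With the genes at 0 set to a floor of 3 counts over the group, the median was 2.56 in the risers and -1.74 in the fallers, and 63 risers and 21 fallers changed at least 2-fold. No share of all tested genes is given beside the limma count or the 2-fold counts, so nothing is read from them. The 150 genes were less abundant in the 0 h controls of 4847 than tested genes in general, with a median of 0.334 against 4.36 CPM, and the part of that difference in the shares called was not tested.

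**Figure D3:**
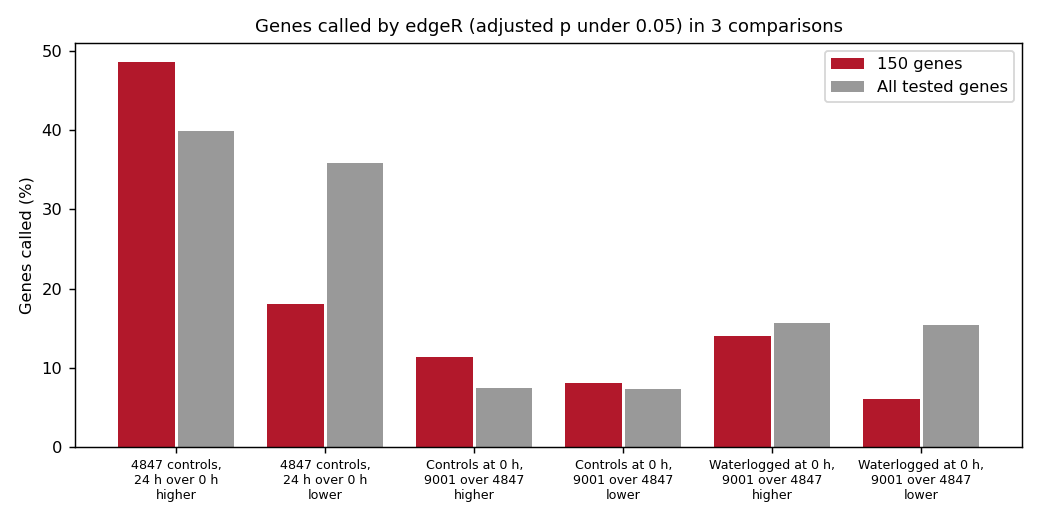
Share of genes called by edgeR at adjusted p under 0.05 (vertical axis, percent) among the 150 genes (red) and among all tested genes (grey), in 3 comparisons, each split into higher and lower. The conditions did not use these comparisons, but the groups compared enter the ratios that chose the genes. In the controls of 4847 48.7% of the 150 genes were higher at 24 h than at 0 h and 18.0% were lower, against 39.9% and 35.9% of all tested genes.

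The 73 risers had higher medians at 24 h than at 0 h in every kind of root, and the highest in previously waterlogged 9001. They were picked by their rise in 4847 controls, and the conditions tie the waterlogged groups to their controls. Their course in waterlogged roots is thus largely built in, and is given as a description. Their median was 7.71 CPM in waterlogged and 2.36 CPM in control 9001 at 24 h, against 0.279 and 0.339 CPM in those groups at 0 h. In 4847 it was 3.00 CPM in waterlogged and 2.48 CPM in control roots at 24 h, against 0.283 and 0.260 CPM at 0 h. On this scale all 73 had a 24 h to 0 h ratio above 1 in the 9001 controls too. The median log2 ratio of 24 h to 0 h, with 0.5 CPM added, was 3.07 in waterlogged and 1.25 in control 9001, and 1.48 in waterlogged and 1.34 in control 4847. Over all tested genes it was 0.81 in waterlogged and 0.41 in control 9001, and 0.27 in waterlogged and 0.42 in control 4847. With TMM factors the median of the risers was 2.37 in waterlogged and 0.87 in control 9001, and 1.27 in waterlogged and 0.97 in control 4847.

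The 27 fallers had another course, which the call in 4847 controls and the conditions again largely set, so it too is a description. Their median was 4.45 CPM in waterlogged and 0.873 CPM in control 9001 at 24 h, against 3.57 and 2.82 CPM in those groups at 0 h. In 4847 it was 1.26 CPM in waterlogged and 1.06 CPM in control roots at 24 h, against 3.49 and 2.92 CPM at 0 h. On this scale the 24 h median of waterlogged 9001 was above those of all 4 groups at 0 h, while the medians of the other 3 groups at 24 h were below them, and 23 of the 27 also had a ratio below 1 in the 9001 controls. The median log2 ratio of 24 h to 0 h was 0.86 in waterlogged and -0.77 in control 9001, and -0.59 in waterlogged and -0.46 in control 4847. With TMM factors it was 0.04 in waterlogged and -1.08 in control 9001, and -0.90 in waterlogged and -0.76 in control 4847. The median level of the fallers was then 3.64 CPM in waterlogged 9001 at 24 h and 6.11 CPM in waterlogged 9001 at 0 h, against 2.66 CPM in control 9001 and 2.79 CPM in control 4847 at 0 h.

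The 50 genes not called in the controls of 4847 were the least abundant. Their median was 2.33 CPM in waterlogged and 0.296 CPM in control 9001 at 24 h, against 0.144 and 0.218 CPM at 0 h. In 4847 it was 0.275 CPM in waterlogged and 0.183 CPM in control roots at 24 h, against 0.114 and 0.108 CPM at 0 h.

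**Figure D4:**
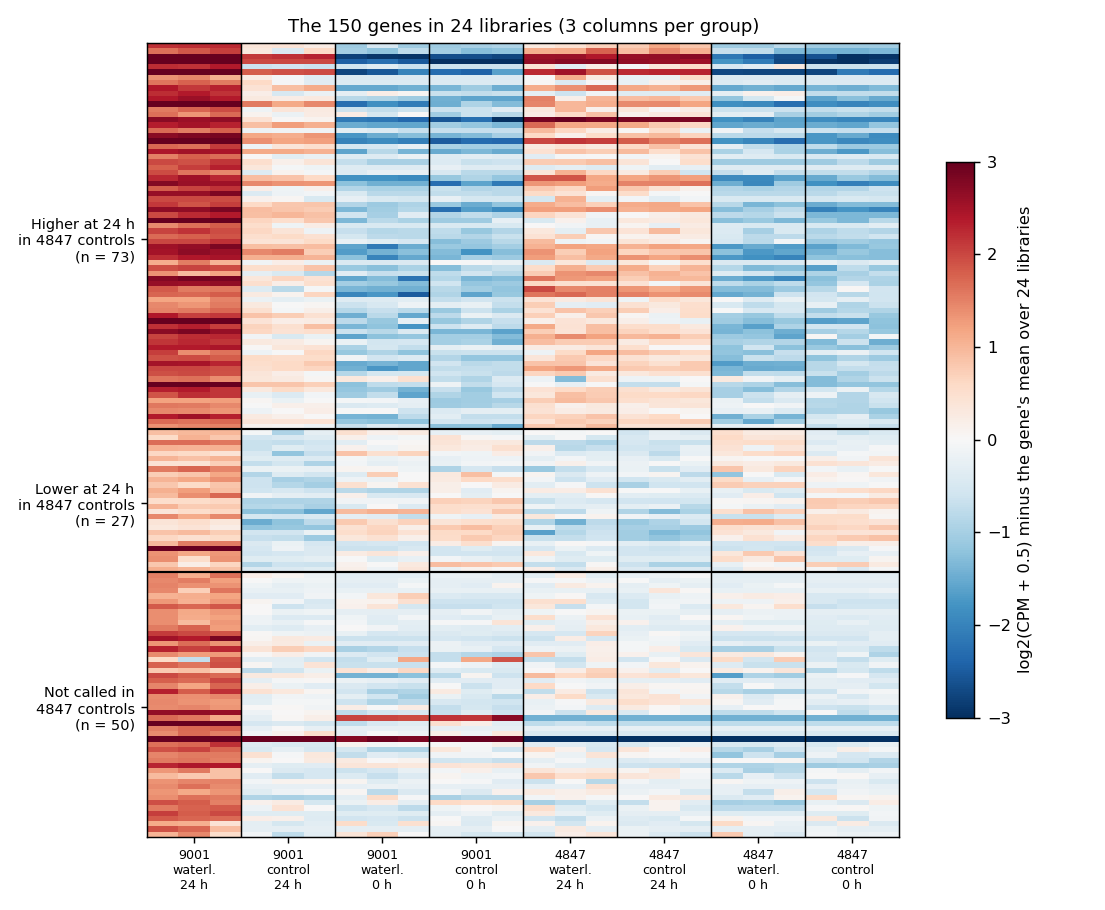
Level of the 150 genes (rows) in the 24 libraries (columns, 3 per group), as log2(CPM + 0.5) minus the gene's mean over all libraries, with colours capped at -3 and 3. Rows are split by the edgeR call in the controls of 4847 at 24 h over 0 h into 73 higher, 27 lower and 50 not called genes, and within each set sorted by the fitted change. Waterlogged 9001 at 24 h is high in all 3 sets, and in the lower set the medians of the 0 h groups lie between it and the other groups at 24 h on this scale of library totals.

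Before recovery the varieties differed by the test in 29 of these genes in control roots and in 30 in waterlogged roots. In control roots at 0 h, 17 of the 150 were higher in 9001 than in 4847, which is 11.3%, against 7.47% of all tested genes (edgeR, adjusted p under 0.05). Another 12 were lower, which is 8.00%, against 7.34%. Of the 17, 4 had no counts in 4847, and of the 12, 1 had none in 9001. With those at a floor of 3 counts over the group, the median log2 difference was 1.75 in the 17 and -1.20 in the 12. Among genes counted in both varieties the fitted differences ran from 0.50 to 4.15 in the higher and from -4.16 to -0.38 in the lower ones. The count of lower genes was 6 without replicate 3 of control 9001 at 0 h. In waterlogged roots at 0 h, 21 were higher in 9001, which is 14.0%, against 15.6% of all tested genes, and 9 were lower, which is 6.00%, against 15.4%. The split in waterlogged roots turned with the scaling, to 15 higher and 18 lower with library totals alone, and the 9 lower genes became 5 without replicate 3 of waterlogged 9001 at 0 h. Over all tested genes the median log2 ratio of 9001 to 4847 in these roots was -0.09 with library totals and 0.5 CPM added. In the fit with TMM factors it was 0. Shares of all tested genes called with library totals are not given, so nothing is read from that turn. In both kinds of root 7 genes were higher and 1 was lower in 9001, and 3 were called in opposite directions. The bounds at 0 h tie the difference in waterlogged roots to that in controls. No share over all tested genes is given for this overlap, so nothing is read from it. The share lower in 9001 was near that of all tested genes in controls, and the share higher was near it in waterlogged roots. Of the 150, 4 genes had 3 counts or fewer over all 12 libraries of 4847, and 2 had 3 counts or fewer over the other 9 libraries of 9001. A gene above that cut had at most 0.111 CPM in any library of 4847, against 34.4 to 45.6 CPM in those 9 libraries of 9001. In waterlogged 9001 at 24 h it had 99.2 to 105 CPM, so its flat ratio in 4847 rests on almost no counts.

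Values in every library are given for 4 genes, named by a rule because the files give no gene names. Ghir_D09G001750 and Ghir_A09G008360 had the largest ratios in 9001 at 24 h among genes with at least 5 CPM there. Ghir_A07G001290 and Ghir_A13G003880 had the largest fitted falls in the controls of 4847 among genes with at least 5 CPM at 0 h. The letter and number after Ghir in an ID give its chromosome label. Cotton is an allotetraploid and carries an A and a D copy of many genes, so the count of either copy is uncertain wherever a read fits both.

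Ghir_D09G001750, 1263 bases long, had 13.4, 12.4 and 11.4 CPM in waterlogged 9001 at 24 h, against 0.103, 0.127 and 0.0751 CPM in its controls. The groups did not overlap, and the ratio of their counts, 1379 to 12, was 122 (exact 95% interval 69.6 to 237, counting error only). At 0 h it had 0, 0.109 and 0.160 CPM in waterlogged 9001 and 0.685, 0.472 and 0.182 CPM in its controls. In 4847 it had 1 count over all 12 libraries, in replicate 2 of waterlogged roots at 24 h, and no counts in the other 11. Counts were thus near 0 in 4847 in every condition and not in recovery alone. In controls at 0 h it was higher in 9001 than in 4847, with 51 counts against 0. That is at least 17.1-fold with the group at 0 set to 3 counts, and 13.4-fold at the lower limit of the exact 95% interval (edgeR adjusted p = 8.09e-06). In waterlogged roots at 0 h it had 10 counts in 9001 against 0 in 4847, at least 3.29-fold on the same floor and 2.21-fold at the lower limit (edgeR adjusted p = 0.0148), a call lost without replicate 3 of waterlogged 9001 (edgeR adjusted p = 0.0831).

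Ghir_A09G008360, 1320 bases long, had 7.96, 7.76 and 6.48 CPM in waterlogged 9001 at 24 h, against 0.0514, 0.203 and 0.0751 CPM in its controls. The groups did not overlap, and the count ratio, 823 to 13, was 67.2 (exact 95% interval 39.1 to 127). All 18 libraries of the other 6 groups lay at or below 0.262 CPM. In 4847 at 24 h there were 7 counts in waterlogged against 2 in control roots, a ratio of 6.22 (1.18 to 61.3). The added 0.5 CPM turns that into a log2 ratio of 0.23, within the bound. In the controls of 4847 it fell to 2 counts at 24 h, against 14 at 0 h, a fitted log2 change of -3.01 (SE 0.98, edgeR adjusted p = 0.00552). Of those 14 counts 10 came from replicate 3, without which the call was lost (edgeR adjusted p = 0.175). In controls at 0 h the difference between the varieties did not pass the test, with 7 counts in 9001 and 14 in 4847 (edgeR adjusted p = 0.511).

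Ghir_A07G001290, 1008 bases long, had 6.81, 6.17 and 6.64 CPM in waterlogged 9001 at 24 h, against 2.47, 2.34 and 1.73 CPM in its controls. In 4847 at 24 h it had 2.52, 2.41 and 2.65 CPM in waterlogged roots, against 1.82, 1.61 and 1.80 CPM in controls, so the groups stood apart in 4847 as well. At 0 h it had 5.57, 6.06 and 4.76 CPM in waterlogged and 6.48, 7.73 and 6.94 CPM in control 9001, and 4.71, 6.08 and 5.14 CPM in waterlogged and 6.91, 7.73 and 8.19 CPM in control 4847. The controls of 4847 fell to 1.75 ± 0.117 CPM at 24 h, against 7.61 ± 0.649 CPM at 0 h (SD, n = 3 each), a fitted log2 change of -2.61 (SE 0.17, edgeR adjusted p = 3.18e-18). On the scale of library totals waterlogged 9001 at 24 h was the 1 group at that time whose level lay among those at 0 h. With TMM factors it averaged 5.36 CPM, below all 4 groups at 0 h, which averaged 6.67 to 9.36 CPM. The varieties did not differ beyond their spread at 0 h, with fitted log2 differences of -0.13 in controls (edgeR adjusted p = 0.671) and 0.20 in waterlogged roots (edgeR adjusted p = 0.343).

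Ghir_A13G003880, 2271 bases long, had 8.04, 8.57 and 7.47 CPM in waterlogged 9001 at 24 h, against 2.49, 2.62 and 2.55 CPM in its controls. In 4847 at 24 h it had 5.37, 3.52 and 3.73 CPM in waterlogged roots, against 2.89, 2.97 and 2.68 CPM in controls, again without overlap. At 0 h it had 8.88, 10.1 and 7.19 CPM in waterlogged and 11.2, 12.4 and 10.7 CPM in control 9001, and 9.25, 8.63 and 9.10 CPM in waterlogged and 10.5, 9.92 and 11.5 CPM in control 4847. The controls of 4847 fell to 2.84 ± 0.150 CPM at 24 h, against 10.6 ± 0.799 CPM at 0 h (SD, n = 3 each), a fitted log2 change of -2.39 (SE 0.14, edgeR adjusted p = 2.50e-19). At 24 h it averaged 8.03 CPM in waterlogged 9001, below the means of all 4 groups at 0 h, and with TMM factors 6.58 CPM, against 10.2 to 14.9 CPM at 0 h. With TMM factors its log2 ratio at 24 h was 1.66 in 9001 and 1.09 in 4847, which leaves the bound for 4847.

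**Figure D5:**
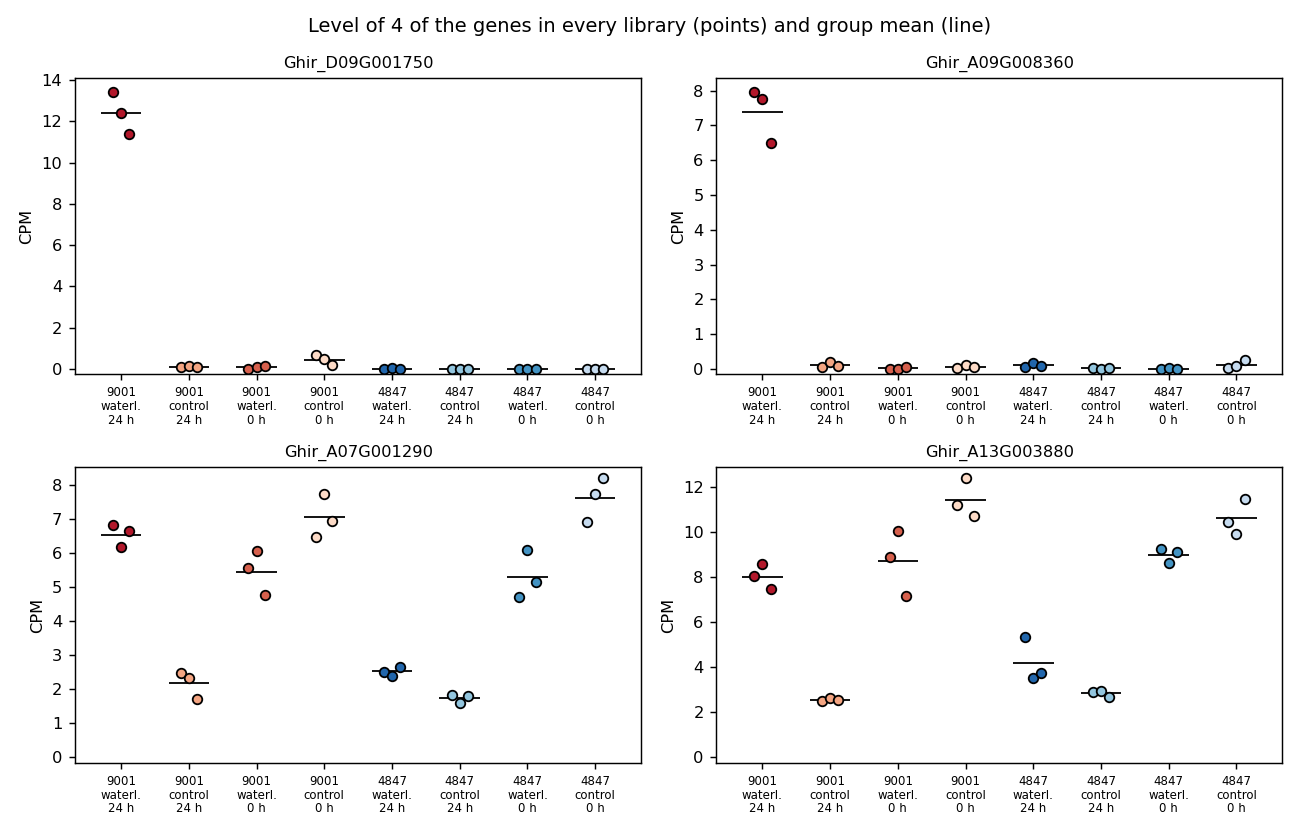
Level in CPM (vertical axes, one scale per panel) of 4 of the 150 genes in each of 3 libraries per group (points) with the group mean (line). Ghir_D09G001750 and Ghir_A09G008360 rise above 1 CPM in waterlogged 9001 at 24 h alone, whereas Ghir_A07G001290 and Ghir_A13G003880 are there above the other groups at 24 h, at 6.54 and 8.03 CPM on average.

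The 150 genes were spread over the genome and were shorter than tested genes in general. Of them 68 carried an A label and 82 a D label, which is 45.3% and 54.7%, against 49.2% and 50.8% of all tested genes. They lay on 25 of the 26 chromosome labels. Most were on D06, at 12 genes, which is 8.0%, against 3.37% of all tested genes. A13 held 11, which is 7.33%, against 3.61%, and A10 held none, against 3.46%. In 2 cases both of a pair of consecutive IDs in the deposited table were among the 150. The gene length that links the deposited FPKM to the counts had a median of 1343 bases in the 150 genes, with quartiles of 966 and 1912, and of 1898 bases in all tested genes, with quartiles of 1257 and 2771. These features were not tested.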

How the data were processed

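RNA sequencing of cotton roots was analysed in 24 libraries, assigned to 8 groups of 3 from their labels. Library totals and their precision are given above. The deposited counts are whole numbers per gene ID with no normalization. The deposited FPKM values are, by the numbers themselves, those counts per column total and gene length. In 1 FPKM line a field separator was missing, and it was left out. No aligner, counting tool or strand setting is given in the sources used here. The build is mm10 per the submitters' processing notes, which is a mouse assembly, whereas the IDs carry cotton chromosome labels, and the assembly used for counting is unknown.

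Counts were tested with edgeR 4.0.16 in R 4.3.3 (filterByExpr, TMM factors, glmQLFit, glmQLFTest), with a coefficient per group over all 24 libraries, 16 residual degrees of freedom, and Benjamini-Hochberg adjustment over 50638 genes at a threshold of 0.05. An SE is the log2 change divided by the square root of its F statistic. The procedure was tested on simulated data with a fixed spread. Changes were placed only in genes with higher counts, so that test does not cover weakly expressed genes. The alternatives were DESeq2 1.42.0, limma 3.58.1 on log2(FPKM + 1) and log2(FPKM + 0.1), other scalings and filters, the libraries compared alone, each library left out, and a replicate block. Ratios of counts carry exact 95% intervals for counting error only. Named are the 2 genes with the largest ratio in 9001 at 24 h, given at least 5 CPM and no overlap with the control libraries, and the 2 with the largest fall in 4847 controls, given a call and at least 5 CPM at 0 h. The genes, lists and tests were chosen with earlier results of these data known.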

Additional observations from a re-analysis of the deposited data

How the results depend on the processing

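Of the 150 genes, 51 met the conditions of the choice with TMM factors, 55 with RLE factors, 73 with upper-quartile factors and 71 with 0.1 CPM added. The numbers were 132 with 1 CPM added and 128 with FPKM. Without each library in turn, 128 to 150 of the 150 genes met them, as did 278 to 309 genes in all. The varieties' difference in waterlogged roots at 0 h, 21 higher and 9 lower, became 18 lower with library totals only, 9 higher and 19 lower with limma on log2(FPKM + 1), and 10 higher and 20 lower with limma on log2(FPKM + 0.1), and 5 were lower with only the libraries compared; the cause was not tested. Without each library in turn these counts were 15 to 20 and 5 to 9. In controls at 0 h they were 12 to 16 higher and 6 to 10 lower. In the controls of 4847, 68 to 74 genes rose and 22 to 29 fell without each library in turn, and 17 fell with limma on log2(FPKM + 1). Every other setting listed in the methods kept these counts within 1.5 times. No shares of all tested genes are given for the alternatives, so whether all genes moved likewise is not shown.

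The fitted difference of Ghir_A13G003880 between varieties in waterlogged roots at 0 h, 0.12 and not called, turned to -0.047 with library totals only, -0.045 with limma on log2(FPKM + 1) and -0.057 with limma on log2(FPKM + 0.1), and ran from -0.011 to 0.241 without each library in turn, the lowest without replicate 2 of waterlogged 9001. That of Ghir_A09G008360, not called either, ran from -2.42 to 3.41 in waterlogged roots and from -1.57 to 0.21 in controls without each library in turn. With limma on log2(FPKM + 1) its fall in 4847 controls was -0.11 (limma adjusted p = 0.151), and the difference of Ghir_D09G001750 in waterlogged roots at 0 h was 0.097 (limma adjusted p = 0.398).

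Same-numbered libraries of the groups compared did not deviate together, with correlations across genes of -0.031 to 0.025, so the replicate numbers were not taken to pair them. With the replicate block the counts were 17 and 12, 20 and 9, and 73 and 27. Low counts limit what can be seen in most of the 150 genes at 0 h.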
